A study of Mus musculus with 13 samples.

Results

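The collagen genes of the mouse liver were taken as every gene whose symbol has the form Col, a type number, a and a chain number, with 1 symbol per array feature. This gave 42 of the 18820 genes measured. Of these, 11 encode chains of fibrillar collagens, 6 encode chains of type IV collagen of basement membranes, and 25 encode other types. The 25 comprise 6 genes of type VI beaded filaments, 8 fibril-associated (FACIT) genes, 2 multiplexins, 3 hexagonal network genes, 4 transmembrane genes and 2 unplaced genes (Col26a1 and Col28a1). Where a gene had several features, the one with the highest mean was used. Col7a1 and Col9a3 were left out because their only named feature also carries another gene's symbol, Mir711 and Tcfl5.

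Total RNA came from 13 livers of C57BL/6J mice, 1 whole-transcript Affymetrix array per liver. The groups were wild-type mice at 3 weeks (n = 3) and 9 weeks (n = 3), and mice lacking Sel1L in hepatocytes at 3 weeks (n = 4) and 9 weeks (n = 3). Deletion joined a floxed exon 6 of Sel1l with Cre recombinase under the albumin promoter (Alb-Cre). All mice had been fasted in the morning. Whether wild-type mice carried the floxed allele was not stated, nor was sex. The albumin promoter acts in hepatocytes, so stellate cells, fibroblasts and endothelium, the main known makers of liver collagen, were not the cells targeted. Values are log2 expression after robust multi-array averaging (RMA), and a difference of 1 is a doubling on the array's scale. Levels of different genes were read by different probes and are not compared.

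Collagens are trimers whose chains wind into a triple helix inside the endoplasmic reticulum after hydroxylation of proline and lysine. Fibrillar types I, III and V form the tensile fibrils of portal tracts and the liver capsule. Type IV forms the sheet-like mesh of basement membranes. In the liver, a thin non-continuous layer holding types IV and XVIII lies in the space between the sinusoids and the hepatocytes. Fibrillar collagen is the bulk of a liver scar. Sel1L works with the ligase Hrd1 in the disposal of misfolded proteins from that same compartment.

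Sel1l stood at 8.70 to 8.94 in the 6 wild-type livers. It stood at 8.42, 7.90, 7.20 and 7.10 in the Sel1L-deficient livers at 3 weeks and at 7.90, 7.54 and 7.72 at 9 weeks. Sel1L-deficient liver 1 at 3 weeks thus kept the most Sel1l signal. Array medians lay between 3.73 and 3.81, and 14 of the 42 collagen genes lay below the median of every array, where a level may be background. Hepatocyte markers were high in every liver, with a mean over 8 genes of 12.5 to 12.7. Because whole liver was used, fewer cells of a type and less RNA per cell cannot be told apart. The labels place the arrays in plate columns 5 and 7, each with 1 or 2 livers of every group. Column 5 held 1 wild-type liver at 9 weeks. Column 7 held 1 wild-type liver at 3 weeks and 1 Sel1L-deficient liver at 9 weeks. Most differences within a column thus rest on a single liver on 1 side. The exceptions, both in column 5, are between genotypes at 3 weeks and over ageing of Sel1L-deficient livers. Differences within a column are given beside the called collagen and pathway genes. They are given only for some of the genes that did not overlap between groups or whose columns differ in sign. Where none are given, the columns may differ. Wild-type livers 1 and 2 at 9 weeks stood apart in smooth muscle genes, described with the fibrillar collagens.

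Across the family, no collagen gene passed the test between genotypes at 3 weeks, and 1 of 42 did at 9 weeks: Col27a1, a fibrillar chain, was lower in the Sel1L-deficient livers. Wild-type livers changed in 3 collagen genes between 3 and 9 weeks: Col4a1 and Col4a2 fell and Col27a1 rose. In Sel1L-deficient livers no collagen gene passed between the ages. The tests were limma fits over all 35556 features with Benjamini-Hochberg adjustment, and an adjusted p under 0.05 counted as called.

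Over the whole array, 1.52% of features were called between genotypes at 9 weeks (1.03% higher and 0.484% lower), beside the 1 of 42 collagen genes called lower. Over wild-type ageing 1.89% of features were called (0.765% higher and 1.12% lower), beside 1 collagen gene higher and 2 lower, of which the 2 are a neighbouring pair. Between genotypes at 3 weeks limma called 0% of features, so Sel1l itself was not called there. The lack of collagen calls at 3 weeks thus does not show that collagen genes were unchanged. Over ageing of Sel1L-deficient livers it called 0.155% (0.0759% higher and 0.0787% lower). The difference of the genotype effect between the ages was called by limma for 0 collagen genes and 0% of features.

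At an unadjusted limma p under 0.05, 2 collagen genes were higher and 2 lower between genotypes at 3 weeks, beside 3.9% and 3.5% of all features. At 9 weeks 0 were higher and 5 lower, beside 7.86% and 6.04%. Over wild-type ageing 2 were higher and 5 lower, beside 6.33% and 7.29%, and over ageing of Sel1L-deficient livers 0 were higher and 7 lower, beside 5.19% and 4.88%. For the difference of effects 0 were higher and 3 lower, beside 5.18% and 4.55%. As shares of 42, the counts of higher genes lie below the background in every comparison but that at 3 weeks, and the counts of lower genes lie above it. The gap is widest over ageing of Sel1L-deficient livers, where 4 of the 7 lower genes are type IV chains. These counts are descriptions without a test.

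Groups of livers did not overlap in 2 collagen genes higher and 2 lower at 3 weeks, beside 3.88% and 3.53% of all features. At 9 weeks these were 1 higher and 6 lower, beside 9.89% and 8.52%. Over wild-type ageing they were 3 and 4, beside 8.46% and 9.38%, and over ageing of Sel1L-deficient livers 1 and 9, beside 4.67% and 4.69%.

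**Figure D1:**
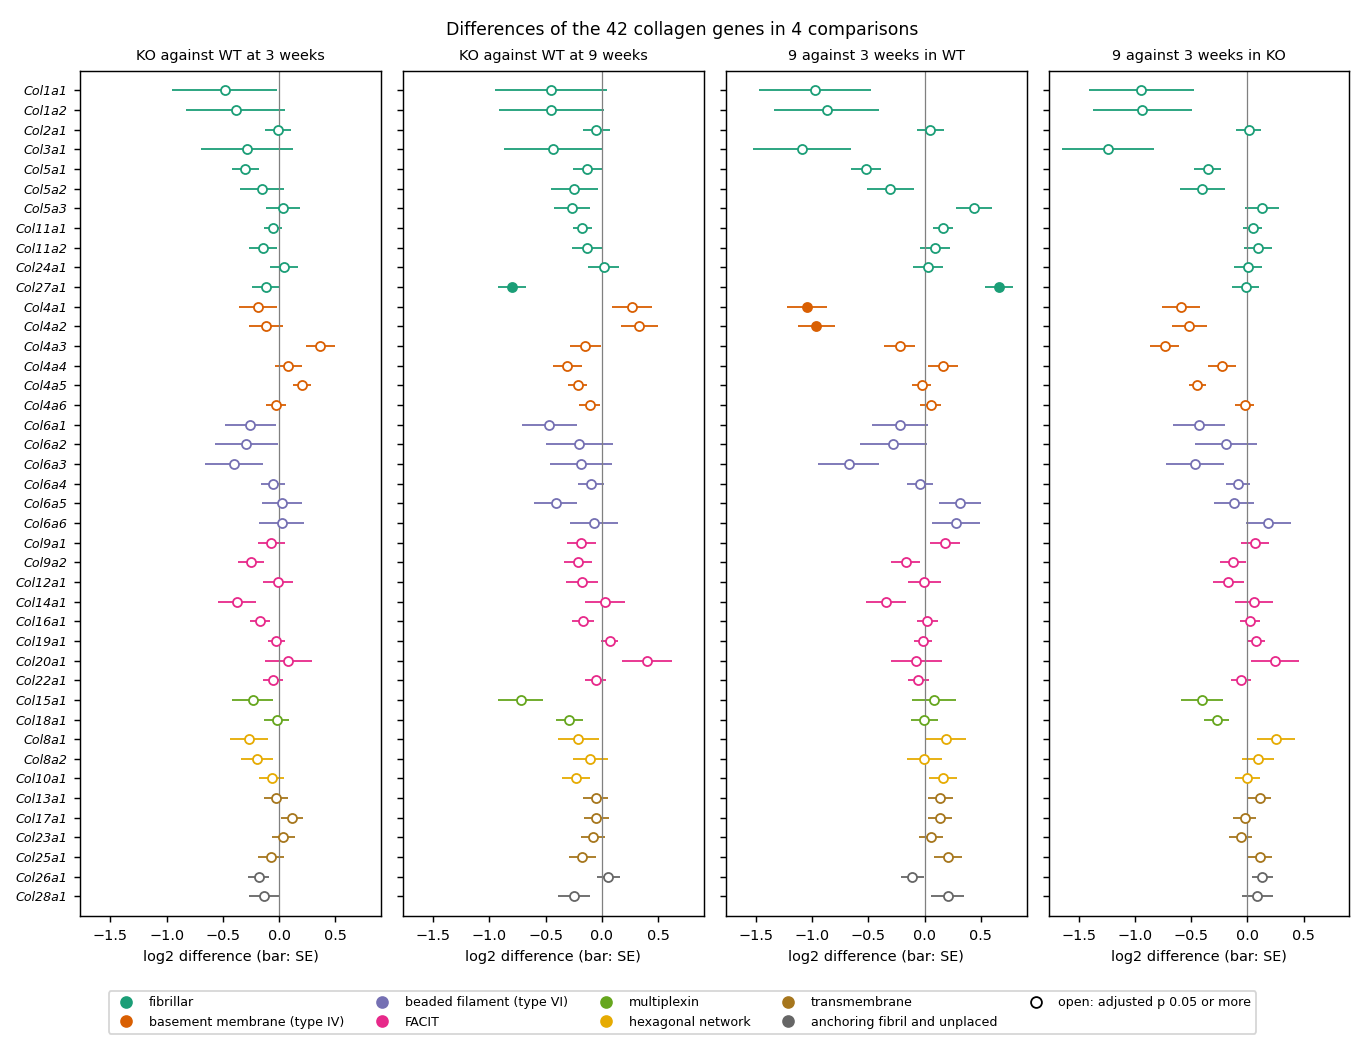
Log2 difference of each of the 42 collagen genes in the comparisons between genotypes and between ages, coloured by collagen class, with bars for the SE and filled points for called genes (WT, wild type; KO, Sel1L-deficient). Most genes lie near 0, with Col27a1 at -0.80 between genotypes at 9 weeks and Col4a1 at -1.04 over wild-type ageing.

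Type IV collagen is a network of trimers, of which the form with 2 chains from Col4a1 and 1 chain from Col4a2 occurs in nearly all basement membranes. In wild-type livers both genes fell between 3 and 9 weeks. Col4a1 (feature 10576973) stood at 6.68, 5.96 and 6.21 in wild-type livers at 3 weeks and at 5.49, 5.11 and 5.11 at 9 weeks. In the Sel1L-deficient livers it stood at 6.30, 6.12, 6.06 and 5.91 at 3 weeks and at 5.38, 5.68 and 5.45 at 9 weeks. Every 3-week liver lay above every 9-week liver. Col4a2 (feature 10570068) stood at 7.05, 6.29 and 6.65 in wild-type livers at 3 weeks and at 5.81, 5.60 and 5.69 at 9 weeks. Its Sel1L-deficient livers stood at 6.60, 6.58, 6.64 and 6.36 at 3 weeks and at 5.87, 6.15 and 6.07 at 9 weeks. Here too the ages did not overlap, and at 9 weeks every Sel1L-deficient liver lay above every wild-type liver.

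The wild-type fall with age was -1.04 ± 0.18 for Col4a1 (SE, 0.485-fold, limma adjusted p = 0.0155) and -0.96 ± 0.16 for Col4a2 (0.513-fold, limma adjusted p = 0.0154). Within plate columns 5 and 7 it was -1.33 and -0.66 for Col4a1, and -1.25 and -0.54 for Col4a2. Without wild-type liver 2 at 9 weeks the limma adjusted p was 0.0664 for Col4a1 and 0.0630 for Col4a2. Without wild-type liver 3 at 9 weeks these were 0.0617 and 0.0557. In Sel1L-deficient livers the age difference was -0.59 ± 0.17 for Col4a1 (limma adjusted p = 0.234) and -0.52 ± 0.15 for Col4a2 (limma adjusted p = 0.259). The age effects of the genotypes differed by 0.46 ± 0.25 for Col4a1 and 0.45 ± 0.22 for Col4a2, with limma adjusted p of 0.582 and 0.553, so a difference in ageing between genotypes was not shown. The Sel1L-deficient age difference within plate columns 5 and 7 was -0.59 and -0.50 for Col4a1, and -0.50 and -0.48 for Col4a2.

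Between genotypes, Col4a1 and Col4a2 differed by 0.27 and 0.33 at 9 weeks, with limma adjusted p of 0.568 and 0.407. The 9-week difference within plate columns 5 and 7 was 0.31 and 0.38 for Col4a1, and 0.38 and 0.40 for Col4a2. At 3 weeks they differed by -0.19 and -0.12, with limma adjusted p of 0.835 and 0.897. Within the plate columns at 3 weeks the sign differed for both: Col4a1 stood at -0.43 and Col4a2 at -0.38 in column 5, and at 0.22 and 0.33 in column 7, where there was 1 wild-type liver.

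Col4a1 and Col4a2 are a head-to-head gene pair, and their promoters are shown because both genes fell together. The windows hold 250 bases before to 50 after the RefSeq start (GRCm38.p6), read 5′ to 3′ on the gene's strand. Capitals mark 3 motifs on either strand: the TATA box (TATAAA, read as TTTATA from the opposite strand), the CCAAT box (CCAAT, read as ATTGG) and the GC box (GGGCGG, read as CCGCCC). No marked runs overlap. Col4a1 lies on the minus strand at chr8:11312777-11313076, and Col4a2 on the plus strand at chr8:11312555-11312854.
Col4a1: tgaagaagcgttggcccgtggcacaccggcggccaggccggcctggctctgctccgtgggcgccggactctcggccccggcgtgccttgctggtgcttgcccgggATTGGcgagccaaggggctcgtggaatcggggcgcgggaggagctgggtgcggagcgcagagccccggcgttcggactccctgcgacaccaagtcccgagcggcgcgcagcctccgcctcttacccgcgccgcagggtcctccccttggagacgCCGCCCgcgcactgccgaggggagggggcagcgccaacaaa
Col4a2: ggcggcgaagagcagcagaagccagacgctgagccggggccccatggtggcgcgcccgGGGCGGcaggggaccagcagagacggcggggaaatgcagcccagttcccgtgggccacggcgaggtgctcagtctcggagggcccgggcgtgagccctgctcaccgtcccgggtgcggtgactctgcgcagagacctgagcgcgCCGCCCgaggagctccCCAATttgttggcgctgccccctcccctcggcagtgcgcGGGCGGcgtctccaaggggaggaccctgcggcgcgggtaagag
The gene starts lie 21 bases apart, and the 5′ ends overlap by 22 bases on opposite strands. The windows share 78 bases. Their GC content is 74.0% for Col4a1 and 73.7% for Col4a2, beside a median of 52.7% over all 32851 windows.

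The other type IV chains were low on the array. Col4a3, Col4a4 and Col4a5 form a trimer known from the kidney filter. Col4a3 stood at 3.97, 3.82 and 3.97 in wild-type livers at 3 weeks and 4.18, 4.05, 4.40 and 4.52 in Sel1L-deficient ones. At 9 weeks it stood at 3.79, 3.57 and 3.73 in wild-type livers and at 3.64, 3.71 and 3.30 in Sel1L-deficient ones. The 3-week genotypes did not overlap, with a difference of 0.37 ± 0.13 (limma adjusted p = 0.591). Over age the Sel1L-deficient livers differed by -0.74 ± 0.13 (0.600-fold, limma adjusted p = 0.0608), and the ages did not overlap. Within plate columns 5 and 7 the 3-week difference was 0.31 and 0.47, and the age difference -0.82 and -0.58.

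Col4a5 stood at 3.53, 3.54 and 3.53 in wild-type livers at 3 weeks and at 3.93, 3.68, 3.65 and 3.70 in Sel1L-deficient livers. At 9 weeks it stood at 3.53, 3.46 and 3.53 against 3.26, 3.36 and 3.26. Sel1L-deficient livers were above all wild-type livers at 3 weeks and below all at 9 weeks, with differences of 0.21 and -0.22 (limma adjusted p = 0.611 and 0.259). Over age the Sel1L-deficient difference was -0.45 ± 0.08 (limma adjusted p = 0.0580). Inside columns 5 and 7, genotypes differed at 3 weeks by 0.16 and 0.25. The 9-week values there were -0.21 and -0.17, and the Sel1L-deficient age difference was -0.43 in both. These levels lie near the array medians. Col4a4 (-0.31 at 9 weeks, limma adjusted p = 0.321) and Col4a6 overlapped between all groups.

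**Figure D2:**
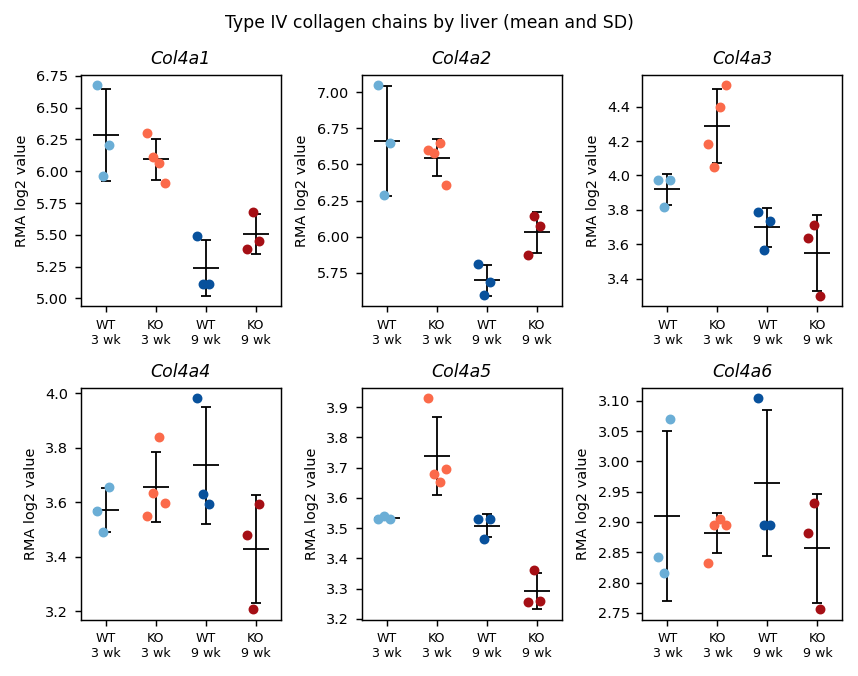
RMA log2 value of each type IV chain in every liver by group, with the mean and SD as bars (each panel has its own axis). Col4a1 and Col4a2 lie lower at 9 weeks than at 3 weeks in both genotypes, and Col4a3 and Col4a5 spread between the 3-week genotypes.

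Col27a1 encodes a fibrillar chain best known from cartilage, and was the collagen gene that differed between genotypes. At 9 weeks it was 1.74-fold lower in Sel1L-deficient livers than in wild-type livers. Col27a1 (feature 10505374) stood at 4.49, 4.57 and 4.42 in wild-type livers at 3 weeks and at 5.00, 5.09 and 5.37 at 9 weeks. The Sel1L-deficient livers stood at 4.37, 4.57, 4.37 and 4.18 at 3 weeks and at 4.53, 4.27 and 4.27 at 9 weeks. The 3 wild-type livers at 9 weeks were thus above all 10 others, which overlapped with each other.

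The genotype difference at 9 weeks was -0.80 ± 0.13 (SE, limma adjusted p = 0.0161), with -0.69 within plate column 5 and -0.91 within column 7. Wild-type ageing gave 0.66 ± 0.13 (1.58-fold, limma adjusted p = 0.0245), with 0.64 and 0.61 within the columns. The genotypes differed by -0.12 at 3 weeks, and Sel1L-deficient livers differed by -0.02 between ages (limma adjusted p = 0.850 and 0.987). The effect's difference between ages was -0.68 ± 0.17 (unadjusted p = 0.00219, limma adjusted p = 0.270). The 9-week genotype call was lost without wild-type liver 2 (limma adjusted p = 0.0548) or without Sel1L-deficient liver 2 or 3 at 9 weeks (0.0815 and 0.0819). The ageing call was lost without any 1 of the 3 wild-type livers at 3 weeks (0.0781, 0.0514 and 0.0805) or wild-type liver 2 or 3 at 9 weeks (0.0664 and 0.0783).

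Its promoter is shown as that of the gene with the genotype difference (plus strand, chr4:63215162-63215461, GC content 61.7%, capitals as above).
Col27a1: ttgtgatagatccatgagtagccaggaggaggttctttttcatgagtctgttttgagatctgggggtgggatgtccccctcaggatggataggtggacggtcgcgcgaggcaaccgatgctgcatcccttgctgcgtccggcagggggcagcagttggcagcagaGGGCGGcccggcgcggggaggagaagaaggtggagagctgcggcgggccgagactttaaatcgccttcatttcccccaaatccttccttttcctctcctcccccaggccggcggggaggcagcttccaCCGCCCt
It holds GGGCGG or its opposite strand 2 times and neither of the other motifs. Over all 34 collagen genes with a window, GGGCGG occurred in 21 (61.8%), beside 35.7% of all windows. CCAAT occurred in 12 (35.3%) beside 37.4%, and TATAAA in 5 (14.7%) beside 13.6%. The collagen shares count genes and the others count windows, and GC content was not matched, so no enrichment is read from them.

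Among the fibrillar genes, those of types I and III are the main chains of scar fibrils. Col1a1 and Col1a2 encode the chains of type I and Col3a1 that of type III. In their group means all differed in the direction of lower values in Sel1L-deficient livers and at 9 weeks, but none passed the test. Col1a1 (feature 10380419) stood at 7.47, 6.36 and 7.69 in wild-type livers at 3 weeks and at 7.08, 6.30 and 5.21 at 9 weeks. The Sel1L-deficient livers stood at 7.57, 6.69, 6.39 and 6.11 at 3 weeks and at 6.02, 5.74 and 5.48 at 9 weeks. Wild-type liver 1 was the highest of the 9-week livers and wild-type liver 3 the lowest, so the wild-type spread at 9 weeks enclosed all the Sel1L-deficient livers. Col1a2 (feature 10536220) stood at 7.31, 6.39 and 7.34 in wild-type livers at 3 weeks and at 7.18, 6.00 and 5.24 at 9 weeks. Its Sel1L-deficient livers stood at 7.39, 6.56, 6.34 and 6.23 at 3 weeks and at 6.11, 5.66 and 5.30 at 9 weeks, with the same wild-type liver highest among the 9-week livers. Col3a1 (feature 10346015) stood at 8.02, 7.16 and 7.96 in wild-type livers at 3 weeks and at 7.54, 6.64 and 5.67 at 9 weeks. Its Sel1L-deficient livers stood at 8.13, 7.54, 7.08 and 6.96 at 3 weeks and at 6.39, 6.15 and 6.02 at 9 weeks.

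The Sel1L-deficient ages did not overlap in Col1a1, Col1a2 or Col3a1, with differences of -0.94, -0.94 and -1.24 (limma adjusted p = 0.549, 0.514 and 0.303). Within column 5 these were -0.65, -0.68 and -1.04, and within column 7 -1.24, -1.20 and -1.46. The wild-type ages differed by -0.98, -0.87 and -1.09 and overlapped, with limma adjusted p of 0.440, 0.470 and 0.290. Between genotypes these genes differed by -0.45, -0.45 and -0.43 at 9 weeks, with SE between 0.43 and 0.50. At 3 weeks the Col1a1 difference was -0.48 ± 0.47. Within plate column 5 it was -1.18 and within column 7, with 1 wild-type liver, it was 0.62. The sign at 3 weeks differed between these columns for Col1a2 (-0.94 and 0.48) and Col3a1 (-0.74 and 0.45) as well.

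Among the 9-week wild-type livers, liver 1 was the highest in 7 of the 11 fibrillar genes, Col1a1, Col1a2 and Col3a1 among them, and also in smooth muscle genes. This was not limited to fibrillar genes: counting ties, liver 1 was the highest in 6 of 6 type IV genes and 12 of 25 other types. It was the lowest of the 3 in Col27a1. Acta2, encoding smooth muscle actin, stood at 9.04, 7.64 and 5.33 in wild-type livers 1 to 3 at 9 weeks and at 5.15, 5.45 and 4.96 in the Sel1L-deficient livers. Myh11, encoding smooth muscle myosin, stood at 7.14, 6.04 and 4.33 against 3.95, 4.07 and 4.28. Over the 7 myofibroblast markers, the mean level per liver was 3.79 to 5.59 in wild-type livers and 3.77 to 3.85 in Sel1L-deficient livers at 9 weeks, and 7 of 7 were lower in the latter with a median of -0.72. Without wild-type liver 1 the 9-week genotype differences of Col1a2 and Col3a1 were 0.07 and 0.03, and the median over the 11 fibrillar genes was -0.0085 in place of -0.24. The part of these markers in the fibrillar result was not tested.

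In 6 pairs chosen for sharing a trimer or fibril, the chains varied together between livers of a group. Chains of different types were not correlated beyond these pairs, so the covariation cannot be called particular to partners. Wild-type liver 1 at 9 weeks, for example, stood 0.89 above its group mean in Col1a1 and 0.42 in Col6a3. For Sel1L-deficient liver 1 at 3 weeks these were 0.88 and 0.50. As deviations from group means over 13 livers, Col1a1 and Col1a2 had a Pearson r of 0.970 and a Spearman rho of 0.956 (permutation p = 0.000193 for each, adjusted 0.00116). Here the p is the smallest that the 5184 rearrangements within groups can give. Col1a1 and Col3a1 had an r of 0.979 and a rho of 0.989 (exact permutation, adjusted p = 0.00116 and 0.00231). For Col4a1 and Col4a2 the r was 0.897 and rho 0.923 (exact permutation, adjusted p = 0.00965 and 0.0027).
Col6a1 of the type VI filament had an r of 0.886 with Col6a2 and 0.822 with Col6a3, with rho of 0.731 and 0.676 (exact permutation, adjusted p = 0.0109 for each r, 0.0148 and 0.0181 for rho). Col5a1 and Col5a2, chains of the type V that nucleates fibrils, had an r of 0.612 and a rho of 0.637 (exact permutation, adjusted p = 0.0259 and 0.0451). These are 6 pairs of the same arrays, adjusted over the 6. Within plate columns 5 (n = 7) and 7 (n = 6) the r of Col1a1 with Col1a2 was 0.901 and 0.991, and of Col4a1 with Col4a2 0.975 and 0.835. With Col3a1, Col1a1 had 0.953 and 0.988; Col6a1 had 0.931 and 0.908 with Col6a2, and 0.892 and 0.877 with Col6a3. Col5a1 with Col5a2 had 0.448 and 0.967. Without the 2 livers farthest from the median the r values, in the order Col1a1-Col1a2, Col1a1-Col3a1, Col5a1-Col5a2, Col4a1-Col4a2, Col6a1-Col6a2 and Col6a1-Col6a3, were 0.959, 0.977, 0.840, 0.836, 0.830 and 0.696.

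**Figure D3:**
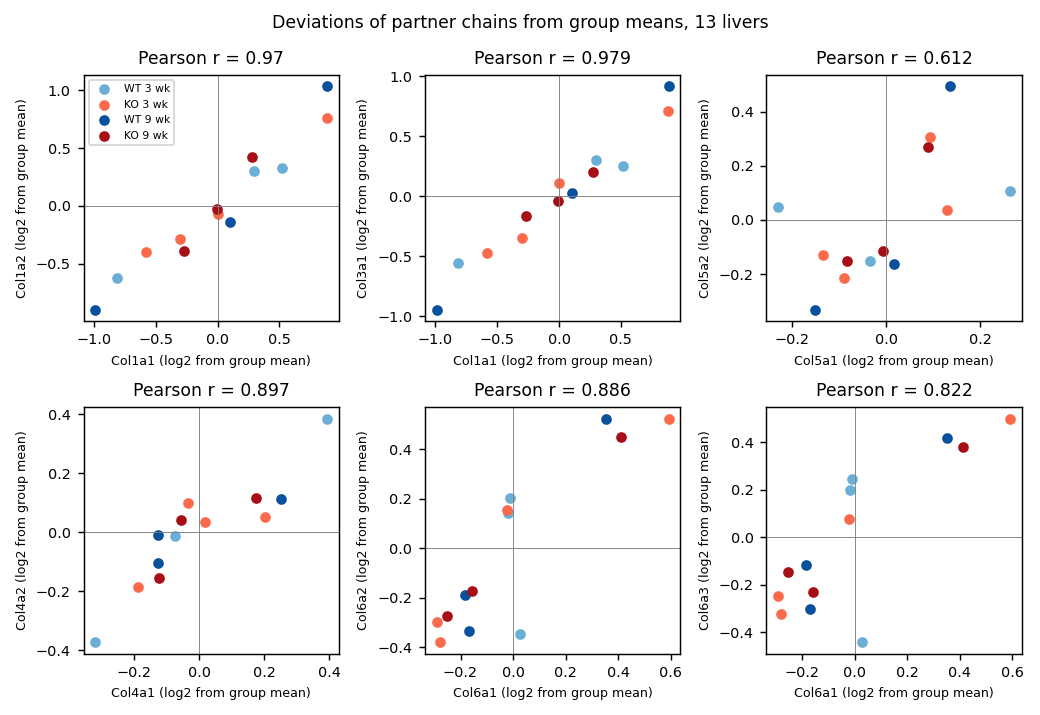
Deviation from the group mean of each liver (log2), 1 chain against its partner for the 6 pairs, 1 point per liver. Points lie along a rising line in each panel, least so for Col5a1 and Col5a2.

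The promoters of Col1a2 (plus strand, chr6:4505368-4505667) and Col3a1 (plus strand, chr1:45311288-45311587) are shown because their genes varied together with Col1a1, with capitals as above. No window of Col1a1 was in the table used.
Col1a2: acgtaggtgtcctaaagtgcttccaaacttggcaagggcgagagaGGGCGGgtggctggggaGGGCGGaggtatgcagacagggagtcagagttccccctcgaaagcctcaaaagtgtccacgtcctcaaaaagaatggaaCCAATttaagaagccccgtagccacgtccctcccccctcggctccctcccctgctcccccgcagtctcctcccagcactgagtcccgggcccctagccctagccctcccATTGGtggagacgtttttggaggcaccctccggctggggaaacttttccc
Col3a1: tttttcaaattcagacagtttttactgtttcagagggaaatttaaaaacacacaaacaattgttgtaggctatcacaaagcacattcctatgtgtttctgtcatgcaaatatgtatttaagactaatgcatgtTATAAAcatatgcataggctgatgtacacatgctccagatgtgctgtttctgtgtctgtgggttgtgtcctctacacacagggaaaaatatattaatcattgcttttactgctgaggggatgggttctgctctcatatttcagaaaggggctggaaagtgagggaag
GC content is 61.0% for Col1a2 and 37.7% for Col3a1. Col1a2 holds CCAAT 2 times and GGGCGG 2 times, counting either strand, and Col3a1 holds only TATAAA, starting 117 bases before the gene start.

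Col5a1 and Col5a3, the other type V chains measured with them, differed in opposite directions over wild-type ageing and did not pass the test. Col5a1 stood at 5.54, 5.24 and 5.04 in wild-type livers at 3 weeks and at 4.88, 4.76 and 4.60 at 9 weeks, a difference of -0.52 ± 0.13 (limma adjusted p = 0.0756). The same difference was called with only features of 1 symbol (limma adjusted p = 0.0421) or only features above the median (0.0447). Its other, dimmer feature gave 0.15, and the mean of both features -0.19 (limma adjusted p = 0.487). Within plate columns 5 and 7 the difference at the feature used was -0.52 and -0.50. In Sel1L-deficient livers it stood at 5.07, 5.10, 4.88 and 4.84, then at 4.71, 4.61 and 4.54. Col5a3 stood at 4.46, 4.53 and 4.16 in wild-type livers at 3 weeks and at 4.85, 4.94 and 4.68 at 9 weeks, a difference of 0.44 ± 0.16 (limma adjusted p = 0.247), with 0.63 and 0.23 within the columns. In neither gene did the wild-type ages overlap. Col11a1, below the array median throughout, gave 0.17 over wild-type ageing (limma adjusted p = 0.462).

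The multiplexins, collagens XV and XVIII, lie in basement membrane zones, and the tail of XVIII can be released as endostatin. Col15a1 (feature 10504775) stood at 5.06, 5.28 and 4.76 in wild-type livers at 9 weeks and at 4.04, 4.33 and 4.57 in Sel1L-deficient livers. At 3 weeks it stood at 5.26, 4.89 and 4.70 against 5.05, 4.52, 4.71 and 4.58. The 9-week genotypes did not overlap, with a difference of -0.72 ± 0.20 (0.607-fold, limma adjusted p = 0.112), -0.98 and -0.58 within the plate columns. Col18a1 (feature 10370259), which hepatocytes are known to express, stood at 8.61, 8.59 and 8.72 at 9 weeks against 8.47, 8.51 and 8.07. Its 9-week difference was -0.29 ± 0.12 (limma adjusted p = 0.297), again without overlap, and -0.32 and -0.15 within the columns. At 3 weeks it stood at 8.79, 8.54 and 8.59 against 8.63, 8.52, 8.68 and 8.66.

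Among the filament and fibril-associated genes no difference was called. Col6a1, Col6a2 and Col6a3, which build the type VI filament, stood lower in Sel1L-deficient livers at 9 weeks in their means, and Col6a1 differed by -0.47 ± 0.25 (limma adjusted p = 0.438). Within plate columns 5 and 7 Col6a1 differed by -0.21 and -0.72. The sign differed between the columns for Col6a2 (0.073 and -0.47) and Col6a3 (0.043 and -0.48). Col14a1, a FACIT collagen that sits on fibril surfaces, stood at 8.28, 7.79 and 8.12 in wild-type livers at 3 weeks. The Sel1L-deficient livers stood at 8.07, 7.76, 7.60 and 7.33, a difference of -0.37 ± 0.17 (limma adjusted p = 0.669), and the groups overlapped. Within plate column 5 it was -0.66 and within column 7, with 1 wild-type liver, 0.045. Col9a2, a FACIT chain of cartilage, stood at 3.98, 4.30 and 3.96 in wild-type livers at 3 weeks and at 3.89, 3.72, 3.86 and 3.85 in Sel1L-deficient livers. The groups did not overlap, with a difference of -0.25 ± 0.12 (limma adjusted p = 0.687), and -0.18 and -0.43 within the columns. Col8a1 stood at 3.25, 3.21 and 3.30 against 3.03, 2.91, 3.16 and 2.84, again without overlap and with a difference of -0.27 ± 0.17 (limma adjusted p = 0.763), and -0.40 and -0.12 within the columns. Col8a1, whose product forms hexagonal lattices under vascular endothelium, gave 0.25 over age in Sel1L-deficient livers (limma adjusted p = 0.704), and 0.32 and 0.21 within the columns.

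**Figure D4:**
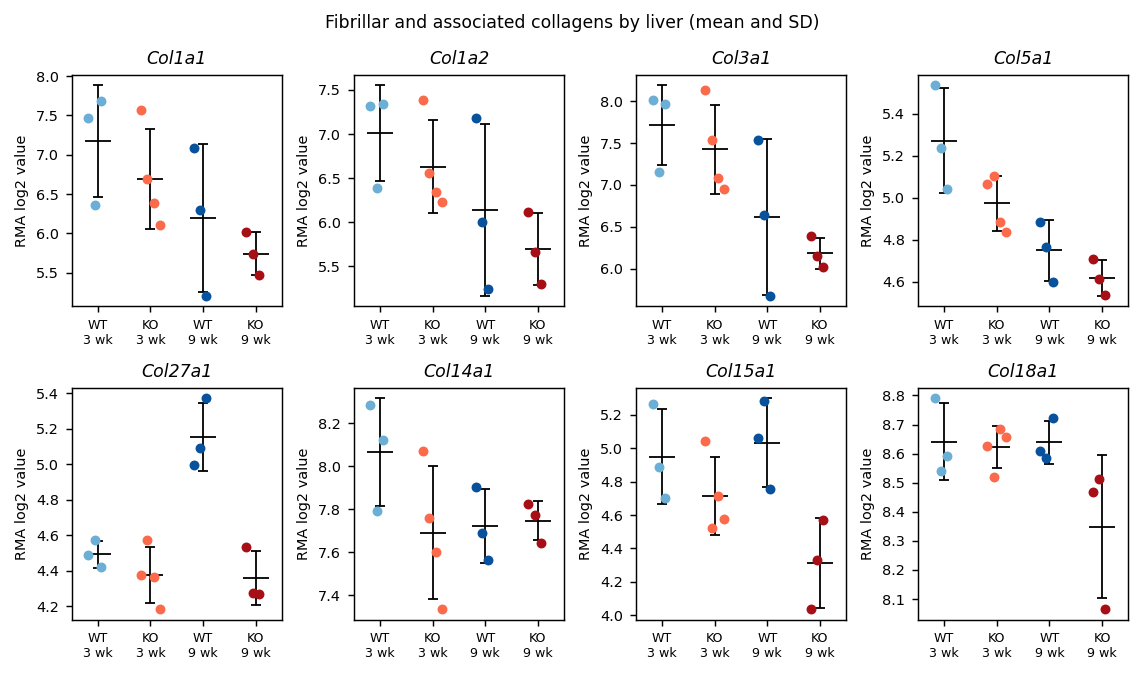
RMA log2 value in every liver by group for 8 collagen genes outside type IV, with mean and SD as bars and an own axis per panel. Col27a1 is higher in the 3 wild-type livers at 9 weeks than in every other liver, and Col15a1 lower in the Sel1L-deficient livers than the wild-type livers at 9 weeks.

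By class, most collagen genes stood lower in Sel1L-deficient livers at 9 weeks, by small amounts. The median difference was -0.24 over the 11 fibrillar genes, of which 10 lay below 0. For type IV it was -0.13, with 4 of 6 below 0, and for other types -0.17, with 21 of 25 below 0. Over the 42 genes together it was -0.17, with 83.33% below 0, beside a median of -0.01 and 51.54% below 0 over all features. Without wild-type liver 1 at 9 weeks the type IV median was -0.070 and that of other types -0.096. Without Sel1L-deficient liver 3 at 9 weeks they were -0.040 and -0.11. At 3 weeks the medians were -0.14, 0.03 and -0.07, with 9 of 11, 3 of 6 and 20 of 25 below 0. Over age the type IV median was -0.12 in wild-type livers, with 4 of 6 below 0. In Sel1L-deficient livers it was -0.48, with 6 of 6 below 0. Over all features 46.89% and 49.13% lay below 0. The type IV medians do not follow Col4a1 and Col4a2, which differed by -1.04 and -0.96 in wild-type livers. In Sel1L-deficient livers these 2 genes differed by -0.59 and -0.52. The fibrillar medians were 0.03 and -0.02. Col1a1, Col1a2 and Col3a1 were far from them, at -0.98, -0.87 and -1.09 in wild-type livers and -0.94, -0.94 and -1.24 in Sel1L-deficient livers. These are descriptions of the list, not tests.

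**Figure D5:**
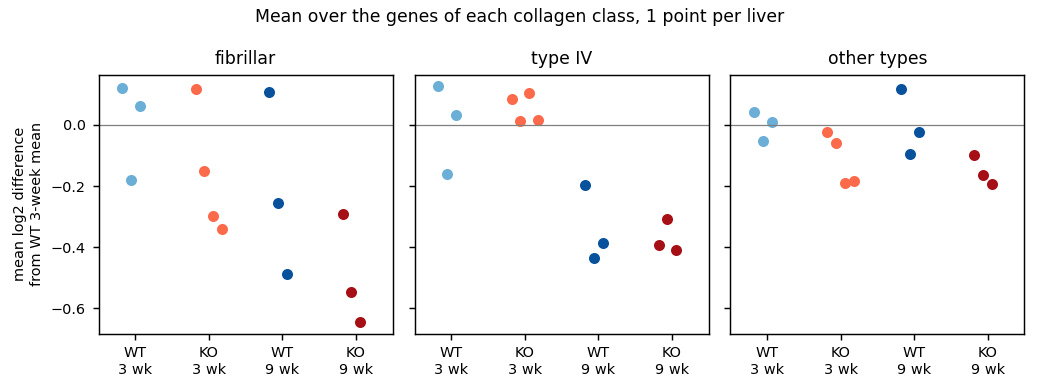
Mean log2 difference from the wild-type 3-week mean over the genes of each class, 1 point per liver (WT, wild type; KO, Sel1L-deficient). Type IV values are negative in all 9-week livers, and the fibrillar value of wild-type liver 1 at 9 weeks (0.11) lies among the 3-week livers.

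The genes that make, move, cross-link and surround collagen were measured for 87 of 95 listed. Over wild-type ageing 1 of 87 rose and 5 fell in limma, beside 0.765% and 1.12% of all features. Of these, 3 falls were of basement membrane partners of type IV: Nid1 (nidogen, which ties laminin to type IV) fell by 1.47 ± 0.18 on the log2 scale (limma adjusted p = 0.00249), Lamc1 (a laminin chain) by 0.97 ± 0.21 (0.0440) and Hspg2 (perlecan) by 0.65 ± 0.13 (0.0295). Lama3 rose by 0.89 ± 0.18 (limma adjusted p = 0.0325). Sparc, a collagen-binding protein, fell by 1.35 ± 0.21 (limma adjusted p = 0.0109), and Mmp14, a membrane collagenase, by 0.75 ± 0.13 (0.0156). Nid1 stood at 7.91, 7.81 and 7.68 at 3 weeks and 6.50, 6.23 and 6.26 at 9 weeks in wild-type livers. Within plate columns 5 and 7 the difference was -1.57 and -1.43 for Nid1, -0.82 and -1.06 for Lamc1, and -0.60 and -0.62 for Hspg2. It was 0.96 in both for Lama3, -1.46 and -1.18 for Sparc, and -0.80 and -0.69 for Mmp14. The calls of Nid1 and Sparc were kept without any single liver. Without wild-type liver 1, 2 or 3 at 3 weeks or 2 or 3 at 9 weeks, Lama3 (limma adjusted p from 0.0544 to 0.119) and Hspg2 (from 0.0585 to 0.104) were no longer called. Mmp14 was lost without wild-type liver 1 or 3 at 3 weeks or 1 or 2 at 9 weeks (from 0.0544 to 0.0613). Lamc1 was lost without any 1 wild-type liver, any 1 Sel1L-deficient liver at 9 weeks, or Sel1L-deficient liver 2 or 4 at 3 weeks (from 0.0553 to 0.143). With only the groups compared in the fit, Sparc, Lama3, Lamc1 and Hspg2 were not called (limma adjusted p = 0.108, 0.124, 0.0847 and 0.148). With the plate column in the fit, Lamc1 and Hspg2 were not called (0.0801 and 0.0573). Nid1 kept its call in all 24 alternatives.

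At 9 weeks 1 of the 87 rose and 0 fell between genotypes, a share near the 1.03% of all features called higher: Sec13, a coat protein of the COPII vesicles that carry procollagen, rose by 0.97 ± 0.17 (1.96-fold, limma adjusted p = 0.0221). It stood at 7.21, 7.10 and 7.49 in wild-type livers against 7.90, 8.35 and 8.46, with differences of 1.09 and 1.00 within plate columns 5 and 7. Its call was lost without wild-type liver 1 or 2 or Sel1L-deficient liver 2 or 3 at 9 weeks (0.0787, 0.0895, 0.102 and 0.104). It was also lost with only the groups compared in the fit (limma adjusted p = 0.172). Between genotypes at 3 weeks, over age in Sel1L-deficient livers and for the difference of effects, 0 of 87 were called, beside 0%, 0.155% and 0% of all features.

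Markers of other liver cells moved with age as well. Over wild-type ageing 10 of 69 fell and 0 rose, beside 1.12% and 0.765% of all features. Among them were Reln and Lhx2 of stellate cells, Stab2, Lyve1 and Oit3 of sinusoidal endothelium, and Top2a, Ccna2 and Mcm2 of dividing cells. Over the 69 markers, called or not, 43 lay below 0 and 26 above. All 5 markers of dividing cells lay below 0, but not all stellate and sinusoidal markers did. Counted whether called or not, 8 of 12 stellate markers lay below 0 and 4 above. Of 10 sinusoidal markers 8 lay below 0 and 2 above. Dnase1l3, of the latter, had a wild-type mean of 8.84 at 3 weeks and 9.14 at 9 weeks. Lyve1 fell by 1.14 ± 0.15 (limma adjusted p = 0.00438) and Ccna2 fell by 2.50 ± 0.29 (limma adjusted p = 0.00212), beside the fall of Col4a1 and Col4a2. Mean levels over the stellate markers were 6.26 to 6.36 in wild-type livers at 3 weeks and 5.96 to 6.20 at 9 weeks, and over the sinusoidal markers 8.02 to 8.07 and 7.69 to 7.82. Between genotypes at 9 weeks 1 marker of 69 rose, beside 1.03% of all features: Lhx2 rose by 0.50 ± 0.10 (limma adjusted p = 0.0302), and 0 fell. The part of these markers in the collagen values was not tested.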

How the data were processed

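The values are the authors' deposited log2 expression values from 13 whole-transcript arrays, made with RMA per the submitters' processing notes. RMA adjusts background, quantile-normalizes and summarises probes, so a shift shared by most genes would be removed. Neither its probe set definition nor a genome build is given in the sources used here. Gene symbols came from the platform annotation; all 42 collagen genes matched RefSeq by gene ID. Promoter windows are RefSeq sequences on GRCm38.p6.

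Each comparison used limma 3.58.1 in R 4.3.3, with a mean per group over 13 livers, eBayes, and Benjamini-Hochberg adjustment over 35556 features. The pipeline was tested on simulated data. Livers are separate mice by the labels, and replicate numbers were not treated as pairs. Correlations of same-numbered deviations ran from -0.013 to 0.0769 over 18 pairs. Livers with different numbers were not compared in this way, so the values do not settle whether the numbers pair livers. Array descriptions give the 9-week livers titled replicate 3 another number, and 2 array numbers are skipped. The 3 or 4 arrays per group limit the precision; the median within-group SD was 0.148 to 0.156.

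Members, lists and tests were chosen with earlier results of these data known. Genes given by liver were the called ones, or with fewer than 4 called up to 4 per direction whose groups did not overlap, always Col1a1, Col1a2, Col3a1, Col4a1, Col4a2, Col18a1 and Sel1l, and called pathway genes. Other collagen genes and cell markers named were chosen after their values were seen. Alternatives covered feature filters, normalization, array weights, plate column, replicate block, the samples fitted and leaving out each liver. No detection calls were used.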

Additional observations from a re-analysis of the deposited data

Results flagged for a closer look

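Among the 42 genes tested in the 4 Sel1L-deficient livers at 3 weeks, 5 had 1 liver far from the others by Dixon's criterion. Chance reaches this criterion in about 1 in 20 groups of values without ties. In Col4a6, Col6a5 and Col19a1 some of these livers shared exactly the same value, so the count of 5 cannot be set against that rate. Liver 1, with the most remaining Sel1l signal, stood at 4.14 for Col5a3, against 4.48 to 4.53. It stood at 3.93 for Col4a5, against 3.65 to 3.70, at 2.83 for Col4a6, against 2.89 to 2.90, and at 3.41 for Col6a5, against 3.51 to 3.52. Liver 2 stood at 2.76 for Col19a1, where the other 3 livers shared the value 2.80.

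The mean genotype difference had opposite signs at the 2 ages in 13 of the 42 genes. In 3 of these every Sel1L-deficient liver lay on one side of the wild-type mean at 3 weeks, and every one on the other side at 9 weeks. The effect of Sel1L deficiency at 9 weeks minus that at 3 weeks was 0.45 for Col4a2 (-0.12 at 3 weeks, 0.33 at 9 weeks; limma adjusted p = 0.553). It was -0.42 for Col4a5 (0.21 and -0.22; limma adjusted p = 0.300) and 0.24 for Col26a1 (-0.18 and 0.06; limma adjusted p = 0.607). None passed the test of the difference. All Sel1L-deficient livers at 9 weeks had the same Col26a1 value, 3.17, and this gene lay below the median of every array. How many of all features show such signs was not counted, so these counts are not read as a result about collagen genes.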

How the results depend on the processing

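Of 1348 alternative values for named genes, 1253 kept direction and side of the threshold. Most of the 1348 belong to genes that the full fit did not call. Among the called genes, Col27a1 stayed called in 19 of 24 alternatives between genotypes at 9 weeks and 17 of 24 over wild-type ageing. Over wild-type ageing Col4a1 and Col4a2 stayed called in 21 of 24 each, Nid1 in 24 and Lamc1 in 10. Of 230 alternative class medians, 228 moved by less than the spread between livers, and 18 changed sign, each from a median between -0.06 and 0.03. A median can change sign within that spread, so the 228 do not show that the medians are stable. Between genotypes at 9 weeks the collagen count of 1 became 0 with the replicate block (Col27a1 limma adjusted p = 0.0503) and with only the groups compared (0.157). It ranged from 0 to 1 with 1 liver left out. The count over all features was then 539 in the full fit, 184 with the block, 294 with the plate column and 1 with only the groups compared, and 18 to 1178 with 1 liver left out. For wild-type ageing the collagen count of 3 became 0 with only the groups compared and 4 with features of 1 symbol or above the median, which add Col5a1 (it also passed with the replicate block, limma adjusted p = 0.0375, where Col27a1 did not, 0.0602), and ranged from 0 to 3 with 1 liver left out; the all-feature count was 255 to 876 around 672. For ageing of Sel1L-deficient livers the collagen count of 0 became 2 with features of 1 symbol, 1 with features above the median and 2 with array weights; the all-feature count was 6 to 210 around 55.

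The fibrillar 9-week median ranged from -0.38 to -0.0085 with 1 liver left out. Adding types XV, XVII and XVIII moved the type IV wild-type ageing median from -0.12 to -0.0012. The interaction for Col1a1 (0.03) was -0.0249 with the plate column, -0.16 with the replicate block, -0.088 with array weights and -0.0102 after quantile normalization. With array weights Col18a1 was 0.0016 at 3 weeks and 0.0095 over wild-type ageing. With 1 liver left out, Col4a1 and Col4a2 at 3 weeks ranged from -0.35 to 0.0098 and -0.30 to 0.076, Col18a1 from -0.069 to 0.056 at 3 weeks and -0.051 to 0.074 over wild-type ageing, and Col1a2 and Col3a1 at 9 weeks from -0.90 to 0.072 and -0.91 to 0.027. Interactions ranged from -0.46 to 0.48 (Col1a1), -0.51 to 0.46 (Col1a2), -0.62 to 0.31 (Col3a1), -0.089 to 0.33 (Col8a1) and -0.072 to 0.15 (Col9a2). The Col5a1-Col5a2 correlation moved to 0.840 without the 2 farthest livers and to 0.448 and 0.967 within plate columns, and Col6a1-Col6a3 to 0.696. Causes were not tested.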

Other observations

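In 22 of the 42 collagen genes at least 2 livers had exactly the same value, and in 14 at least 4 did, so single-liver differences of low genes are coarse. The 4 genes with several features did not always give like values. For Col5a1 the 9-week genotype difference was -0.13 at the feature used (mean level 4.91) and -0.38 at the other (mean level 2.84), with limma adjusted p of 0.738 and 0.289. The family holds 8 pairs of neighbouring genes. Col4a4 and Col4a3, on chromosome 1, gave 0.16 and -0.22 over wild-type ageing, and Col4a6 and Col4a5, on chromosome X, gave -0.03 and -0.45 over ageing of Sel1L-deficient livers.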
